A study of Mus musculus with 4 samples.

Results

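Lipid-associated macrophages are a state of macrophages described in obese fat, and 9 genes used to recognise it were followed here: Trem2, Cd9, Itgax, Gpnmb, Spp1, Lgals3, Mmp12, Ctsd and Atp6v0d2. They were chosen by name, and all 9 were found among the 32285 genes of the count tables. The study profiled nuclei of mouse adipose tissue after bariatric surgery, an operation on the stomach or gut that leads to weight loss. All mice of the 4 groups received a high-fat diet, and the groups crossed operation (surgery or sham operation) with tissue (labelled brown adipose tissue, BAT, or beige adipose tissue, BeAT). Each group was 1 library. The labels used here do not give the strain, sex, age, kind of operation, time after it or number of mice pooled.

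With 1 library per group there was no replicate check, so no test between groups was made and no p-value is given. Levels are CPM, the UMIs (unique molecular identifiers, which count RNA molecules) of a gene per 1000000 UMIs of the nuclei summed. The 95% intervals are exact and cover counting error only. They treat UMIs as independent, although the UMIs of a gene can clump in a few nuclei, so the number of nuclei with a UMI and the share held by the top nucleus stand beside the levels that depend on them. A ratio between 2 libraries was called where it was at least 2-fold, its interval excluded 1 and both libraries together held at least 50 UMIs of the gene.

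Macrophages in fat sit around dying or lipid-laden adipocytes, take up their lipid and break it down in lysosomes. TREM2, a surface receptor that binds lipids and signals through the adaptor TYROBP, is required for this state in obese mice. The state carries surface proteins (CD9, the integrin CD11c, GPNMB), secreted proteins (osteopontin, galectin-3, a matrix protease) and lysosomal proteins (cathepsin D, a subunit of the proton pump).

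The libraries differed in more than the 9 genes. The numbers of nuclei kept were 9791 (sham) and 9159 (surgery) in BAT and 9760 and 5328 in BeAT, with a median of 2654 to 5173 UMIs per nucleus, and pairs of libraries shared 36 to 73 barcodes. In BAT surgery, 5656 nuclei (61.8%) were epithelial-like and carried genes of the epididymis, against 56 in BAT sham and 0 in both BeAT libraries. Ucp1, which defines thermogenic adipocytes, had 2 and 0 UMIs in the adipocyte-like nuclei of BAT (sham, then surgery) and 3 and 0 in those of BeAT, so the tissue labels were not borne out by that marker. Tissue composition and operation cannot be told apart in either comparison of surgery with sham, and since each group is 1 library no comparison can be given without the library that stands apart.

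Macrophage-like nuclei were set by clusters that carried 8 fixed markers (Adgre1, Mrc1, Csf1r, F13a1, Cd163, C1qa, Cd68 and Lyz2), with the 9 genes left out of the clustering. In BAT there were 1210 after the sham operation (12.4% of nuclei) and 965 after surgery (10.5%), and in BeAT 649 (6.65%) and 273 (5.12%). Where 4 values follow each other below, they stand in that order. Their median depth was alike, from 2473 to 3148.5 UMIs. They fell into a cluster led by F13a1, Cd163 and Mrc1, genes of resident macrophages, and a cluster led by Saa3, Rgs1 and Tnip3. The Saa3-led cluster held 13.8% and 43.3% of macrophage-like nuclei in BAT (sham, then surgery), and 36.1% and 71.4% in BeAT. A second rule asked each nucleus for at least 3 of the 8 markers, and for more than of any other class. It was met by 1009 and 823 of these nuclei in BAT, and by 476 and 115 in BeAT. Most of the 273 nuclei of BeAT surgery thus did not meet it. When clustered again, 154 of the 273 lay in sub-clusters with more markers of another class among their top 10 genes.

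BeAT sham had the highest level of 8 of the 9 genes. The exception, Itgax, was highest in BeAT surgery. Against their own sham libraries, BAT surgery was higher for most of the genes and BeAT surgery lower for most of them.

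**Figure D1:**
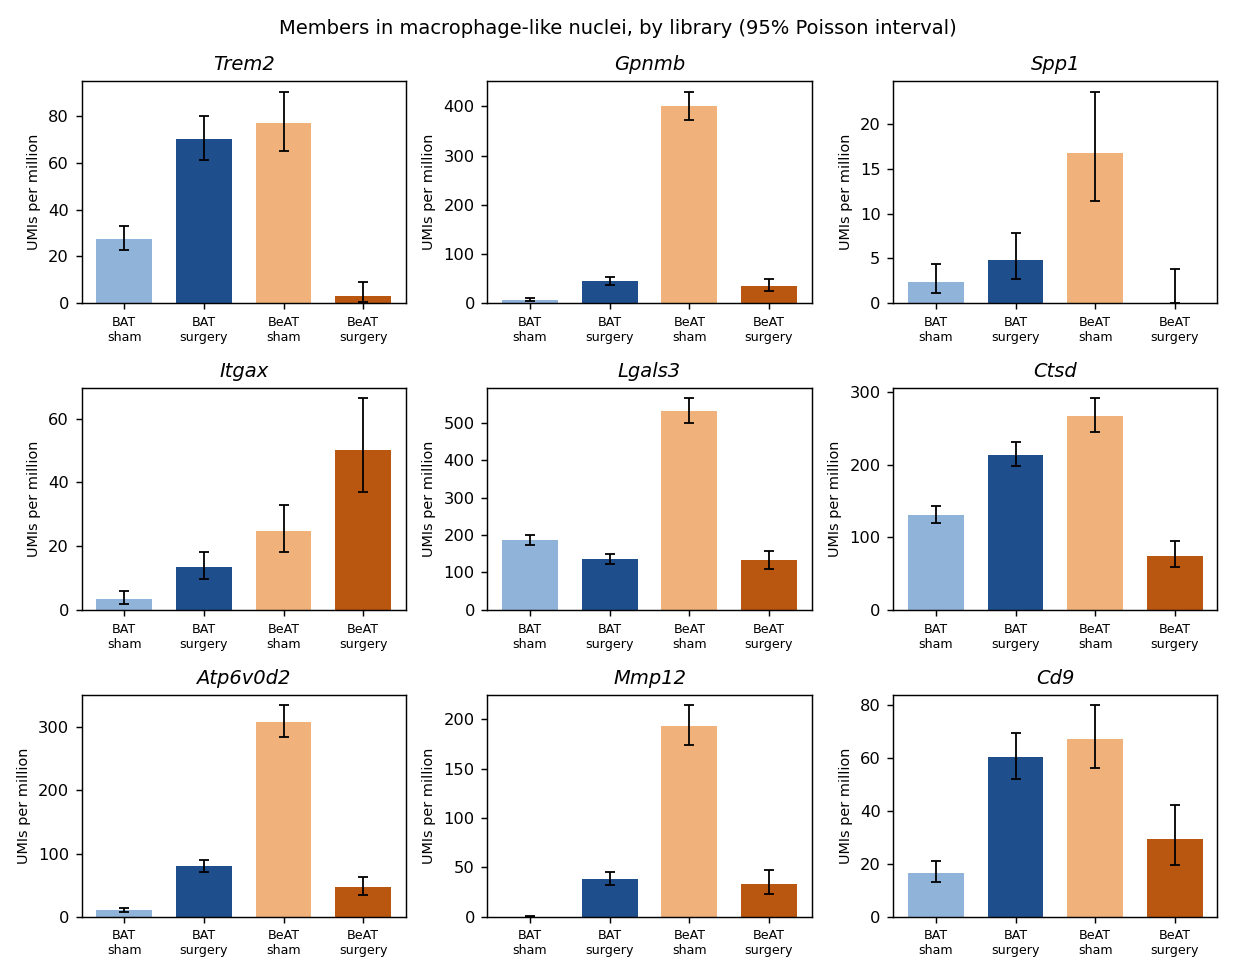
Level of each of the 9 genes (CPM, vertical axes starting at 0 with a scale of their own) in the macrophage-like nuclei of the 4 libraries, with exact 95% Poisson intervals as error bars. BeAT sham stands highest in 8 panels, from 16.8 CPM for Spp1 to 531 for Lgals3, and the Itgax panel peaks at 50.01 in BeAT surgery.

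Trem2 (ENSMUSG00000023992, chr17:48346401-48354147, plus strand, mm10) encodes the lipid-binding receptor itself. In BAT its level was 27.5 CPM after the sham operation and 70.1 CPM after surgery, and in BeAT 77.1 and 3.13 CPM. The counts were 116, 220, 147 and 3 UMIs, in 7.44%, 16.9%, 14.3% and 1.10% of macrophage-like nuclei. The intervals of BAT surgery and BeAT sham overlapped, BAT sham lay below them, and BeAT surgery had Trem2 in 3 of 273 nuclei. The ratio of BAT surgery to BAT sham was 2.55 (2.03 to 3.22), a call. BeAT surgery was 24.7-fold lower than BeAT sham (8.27 to 120.9), an estimate that rests on 3 UMIs. Macrophage-like nuclei had the highest Trem2 level of all classes in every library, although dendritic-like nuclei of BAT surgery reached 61.9 CPM on 18 UMIs. T or NK-like nuclei, which should lack the receptor, had Trem2 in 1 of 1576 nuclei of BeAT surgery (0.0634%, at a median of 2595 UMIs per nucleus against 2966 in macrophage-like nuclei), and in 0 of 138 to 210 in the other libraries.

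Cd9 (ENSMUSG00000030342, chr6:125460266-125494791, minus strand) encodes a tetraspanin, a membrane organiser used with CD63 to sort these cells. It measured 16.6 CPM (sham) and 60.2 CPM (surgery) in BAT, and 67.1 and 29.2 CPM in BeAT, from 70, 189, 128 and 28 UMIs. The intervals of BAT surgery and BeAT sham overlapped, and so did those of BAT sham and BeAT surgery. BAT surgery was 3.63-fold above its sham (2.74 to 4.84) and BeAT surgery 2.30-fold below its sham (1.52 to 3.60). Cd9 was not highest in macrophage-like nuclei: the class ranked between 5th and 8th, and Schwann-like nuclei reached 562 CPM (BAT sham) and 1129 CPM (BeAT sham). The Schwann markers summed over macrophage-like nuclei of BAT sham came to 2.43% of their level in Schwann-like nuclei. RNA carried over at that rate would give 82.4% of the Cd9 seen there, and 48.1% in BeAT sham. In BAT surgery the epididymal genes stood at 11.4% of their epithelial level, a rate that would give 18.1% of its Cd9. What stray RNA added to Cd9 was not tested further.

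Itgax (ENSMUSG00000030789, chr7:128129547-128150657, plus strand) encodes CD11c, an integrin chain of dendritic cells and of recruited macrophages in obese fat. It was the 1 gene with another order: 3.56 CPM (sham) and 13.4 CPM (surgery) in BAT, then 24.6 and 50.01 CPM in BeAT, from 15, 42, 47 and 48 UMIs. Both surgery libraries lay above their shams, by 3.76-fold for BAT (2.04 to 7.30) and 2.03-fold for BeAT (1.33 to 3.10). Nearly all of it came from the Saa3-led cluster, since the F13a1-led cluster held 1 Itgax UMI over all 4 libraries. Within the Saa3-led cluster both calls were lost, with a ratio of 1.29 for BAT (0.690 to 2.55) and 1.12 for BeAT (0.733 to 1.71). T or NK-like nuclei carried Itgax at 62.6, 28.8, 107 and 7.09 CPM, and dendritic-like nuclei at 16.8, 27.5, 14.95 and 42.5 CPM. In the macrophage-like nuclei of BeAT surgery the summed T or NK markers stood at 243.8 CPM, against 21.04 to 33.7 in the other 3 libraries, and the dendritic markers at 290.7 against 71.7 to 139. RNA of lymphoid cells, carried over at the rate of their markers, would give 42.1% and 9.56% of the Itgax in BAT (sham, then surgery), and 8.07% and 0.593% in BeAT. The part of dendritic cells in the Itgax level was not tested.

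Gpnmb (ENSMUSG00000029816, chr6:49036546-49070929, plus strand) encodes a transmembrane glycoprotein of endosomes and lysosomes that is induced by lysosomal stress. The level in BAT was 7.36 CPM (sham) and 44.3 CPM (surgery), and that in BeAT 400.6 and 34.4 CPM, from 31, 139, 764 and 33 UMIs. BeAT sham stood far above the others, where 87 of 649 nuclei held the 764 UMIs, and the intervals of BAT surgery and BeAT surgery overlapped. BAT surgery was 6.02-fold above BAT sham (4.06 to 9.20), and BeAT surgery was 11.7-fold below BeAT sham (8.22 to 17.1). Adipose progenitor-like nuclei carried more Gpnmb than macrophage-like nuclei except in BeAT sham, at 176, 68.4, 216 and 101 CPM. Progenitor markers in the macrophage-like nuclei of BAT sham stood at 2.21% of their level in progenitors, which would give 52.8% of the Gpnmb there. The same calculation from the epididymal genes would give 15.9% of Gpnmb in BAT surgery.

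Spp1 (ENSMUSG00000029304, chr5:104435118-104441050, plus strand) encodes osteopontin, a secreted ligand of integrins and CD44. It was the scarcest in counts: 10 and 15 UMIs in BAT (sham, then surgery) and 32 and 0 UMIs in BeAT, or 2.37, 4.78, 16.8 and 0 CPM. In BAT surgery 14 of the 15 UMIs were in 1 nucleus, while in BeAT sham the 32 were spread over 16 nuclei. A count of 0 allows up to 3.13 CPM in BeAT surgery, so by that allowance the library was at least 5.37-fold lower than BeAT sham (4.12 by the exact interval). Neither pair reached 50 UMIs, and Spp1 entered no count of calls. Schwann-like nuclei had the highest level, 323 CPM (BAT sham) and 162 CPM (BeAT sham). Stray RNA at the rate of the Schwann markers would exceed all of the Spp1 seen in macrophage-like nuclei of BAT sham (7.86 against 2.37 CPM) and give 27.7% of it in BeAT sham.

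Lgals3 (ENSMUSG00000050335, chr14:47367751-47386160, plus strand) encodes galectin-3, a sugar-binding protein that also gathers at damaged lysosomes. Levels in BAT were 186.7 CPM (sham) and 135.5 CPM (surgery), and in BeAT 531 and 132 CPM, from 787, 425, 1013 and 127 UMIs. The 2 surgery libraries had overlapping intervals, BAT sham lay a little above them and BeAT sham far above. Lgals3 was the 1 gene whose ratio in BAT lay below 1, at 0.726 (0.643 to 0.817), too small a difference for a call. In BeAT it was 4.01-fold lower after surgery (3.33 to 4.87). Within the F13a1-led cluster the BAT difference was larger, with a ratio of 0.460 (0.378 to 0.556), and was called lower.

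Mmp12 (ENSMUSG00000049723, chr9:7344381-7369499, plus strand) encodes macrophage elastase, a secreted protease that cuts elastin. BAT sham held 0 Mmp12 UMIs among 4214655, which allows up to 0.712 CPM. The other libraries had 38.3 CPM (BAT surgery), 193.5 CPM (BeAT sham) and 33.3 CPM (BeAT surgery), from 120, 369 and 32 UMIs in 17, 26 and 8 nuclei. BAT surgery was therefore at least 53.7-fold higher than its sham by that allowance (the exact interval of the ratio starts at 43.03), and BeAT surgery 5.80-fold lower than its sham (4.04 to 8.61). Few nuclei carried these counts: 1 nucleus held 113 of the 369 UMIs of BeAT sham, and without it the level was 134. In BeAT surgery 1 nucleus held 17 of 32. No other class had more than 8.12 CPM of Mmp12, a value that rests on 1 UMI.

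Ctsd (ENSMUSG00000007891, chr7:142375911-142388038, minus strand) encodes cathepsin D, an aspartic protease of lysosomes in nearly all cells. Levels were 131 CPM (sham) and 214 CPM (surgery) in BAT, against 267 and 75.0 CPM in BeAT, from 553, 672, 510 and 72 UMIs. Its range across libraries was narrow beside those of Gpnmb, Atp6v0d2 and Mmp12. BAT surgery exceeded BAT sham by 1.63-fold (1.46 to 1.83), short of a call, and BeAT surgery was 3.56-fold below BeAT sham (2.78 to 4.63). The BAT ratio split by cluster: 0.761 (0.640 to 0.902) in the F13a1-led cluster and 3.36 (2.58 to 4.45) in the Saa3-led cluster. T or NK-like nuclei of BeAT sham carried Ctsd at 239 CPM, close to the macrophage level.

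Atp6v0d2 (ENSMUSG00000028238, chr4:19876841-19922605, minus strand) encodes the d2 subunit of the vacuolar proton pump, known from osteoclasts and macrophages. In BAT it measured 10.7 CPM (sham) and 79.7 CPM (surgery), and in BeAT 309 and 46.9 CPM, from 45, 250, 589 and 45 UMIs. BAT surgery was 7.46-fold higher than BAT sham (5.42 to 10.5), and BeAT surgery was 6.59-fold lower than BeAT sham (4.86 to 9.13). In BeAT surgery 24 of the 45 UMIs were in 1 nucleus and all 45 were in 6 nuclei, whereas 108 nuclei of BeAT sham had a UMI. Epithelial-like nuclei of BAT surgery also carried the gene, at 97.2 CPM in 29.2% of them, and stray RNA at the rate of the epididymal genes would give 13.9% of the macrophage level there.

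The other classes place the genes in 3 sorts. Trem2 was highest in macrophage-like nuclei in all 4 libraries. Mmp12 was highest there in the 3 libraries where those nuclei held its UMIs, while in BAT sham skeletal muscle-like nuclei had 0.882 CPM. Atp6v0d2 and Lgals3 were highest there in 3 of 4 libraries. Gpnmb, Cd9, Spp1, Itgax and Ctsd were higher in another class in at least 2 libraries.

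**Figure D2:**
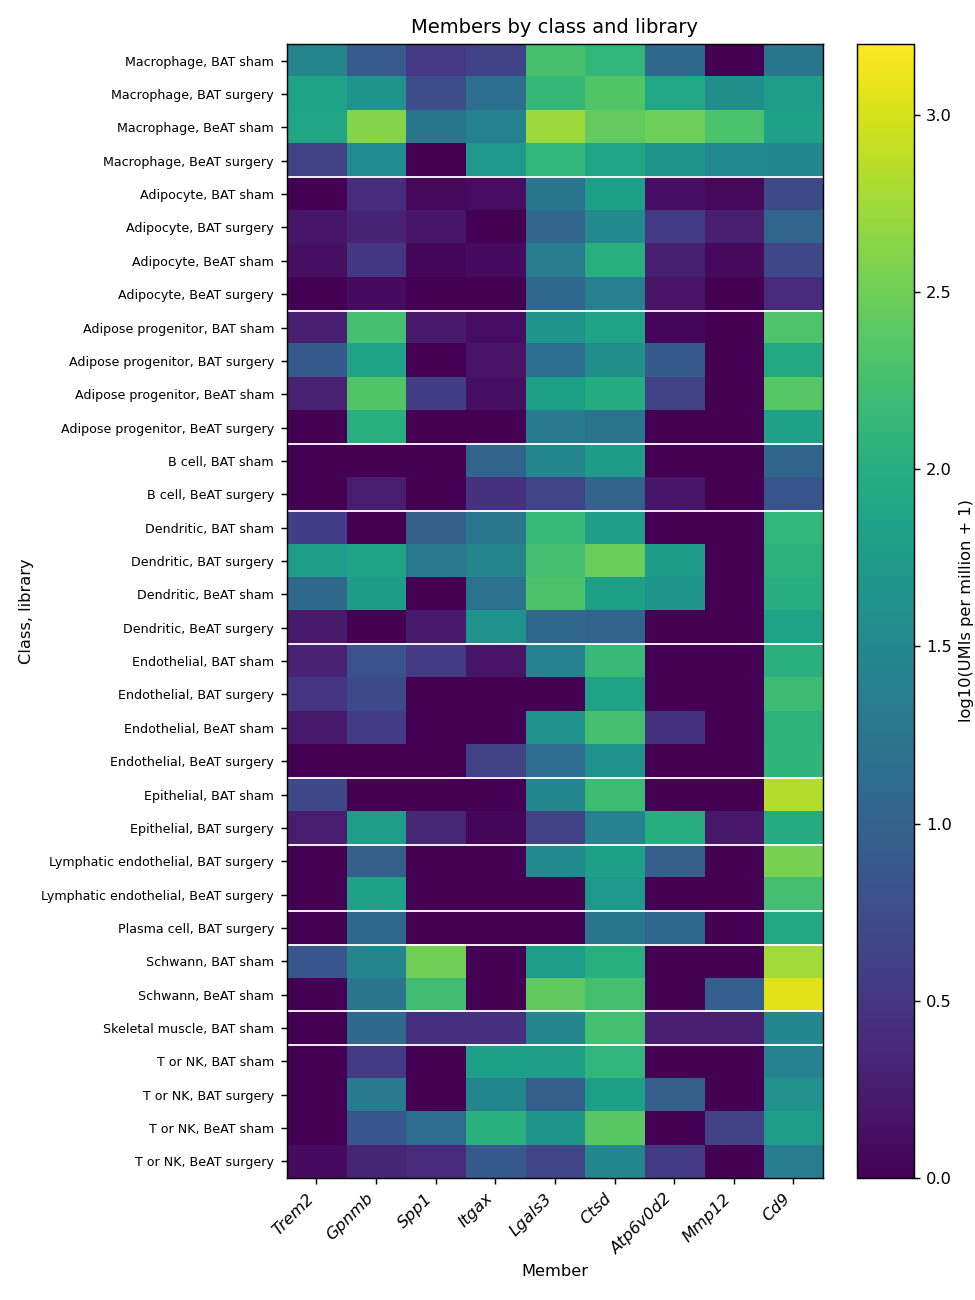
Level of the 9 genes (columns) in each class of at least 50 nuclei in each library, as log10 of CPM plus 1 (colour). Mmp12 is dark outside the macrophage rows, while Cd9 is bright in Schwann-like nuclei (1129 CPM in BeAT sham) and Gpnmb in adipose progenitor-like nuclei.

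For 4 genes of different kinds, the receptor, a lysosomal glycoprotein, a lysosomal protease and the integrin with the other order, the sequence around the start site is shown. Each holds a match to 1 of the motifs searched, in some cases a loose one. The stretches run from 250 bases before the RefSeq start to 20 after it (GRCm38.p6), and capitals mark the motif. They are chr17:48346151-48346420 (plus strand) for Trem2, chr6:49036268-49036537 (plus) for Gpnmb, chr7:142387808-142388077 (minus) for Ctsd and chr7:128129300-128129569 (plus) for Itgax.
Trem2: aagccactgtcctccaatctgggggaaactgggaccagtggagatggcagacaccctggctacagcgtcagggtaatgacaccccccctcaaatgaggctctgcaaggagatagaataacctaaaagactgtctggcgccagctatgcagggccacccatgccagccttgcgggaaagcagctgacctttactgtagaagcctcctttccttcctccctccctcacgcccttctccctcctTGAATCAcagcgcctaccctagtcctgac
Gpnmb: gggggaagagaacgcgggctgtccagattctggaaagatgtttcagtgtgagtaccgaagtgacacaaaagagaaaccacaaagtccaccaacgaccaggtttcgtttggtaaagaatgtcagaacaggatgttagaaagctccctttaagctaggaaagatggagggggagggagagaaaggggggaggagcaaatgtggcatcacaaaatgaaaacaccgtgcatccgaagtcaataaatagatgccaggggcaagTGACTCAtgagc
Ctsd: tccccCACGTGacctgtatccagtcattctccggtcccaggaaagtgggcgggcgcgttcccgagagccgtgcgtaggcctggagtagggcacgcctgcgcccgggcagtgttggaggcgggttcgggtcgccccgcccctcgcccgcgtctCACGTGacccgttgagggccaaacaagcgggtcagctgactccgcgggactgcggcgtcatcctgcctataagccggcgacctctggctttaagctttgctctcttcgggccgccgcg
Itgax: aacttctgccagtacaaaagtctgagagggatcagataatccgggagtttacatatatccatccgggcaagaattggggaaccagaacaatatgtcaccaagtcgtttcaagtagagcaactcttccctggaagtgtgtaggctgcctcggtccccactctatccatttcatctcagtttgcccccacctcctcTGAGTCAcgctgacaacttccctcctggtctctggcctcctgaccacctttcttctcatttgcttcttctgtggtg

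Both strands were searched over 300 bases, 250 before to 50 after the start, of 10 promoters of 8 of the 9 genes. Ctsd held CACGTG, the E-box core bound by MiT/TFE factors of lysosomal genes, at 245 and at 98 bases before its start. CACGTG was in 7.15% of the 32851 promoters of the same length. A longer form of that E-box, also searched, had 0 hits in the 10 promoters, that of Ctsd included. It was in 0.326% of all promoters. TGANTCA, a loose form of the AP-1 motif searched with any base at its centre, stood 9 bases before the start of Trem2 and 8 after that of Gpnmb. It also stood 56 before the start of Itgax and 44 before 1 of the 2 starts of Mmp12, and was in 7.81% of all promoters. The centre base was A in Trem2, C in Gpnmb and G in Itgax and Mmp12. Also searched were GAGGAAGT, found in 1 promoter each of Spp1 and Mmp12, and TCATGTG, found in 1 promoter of Mmp12. Neither was in the stretches shown above, and they were in 3.2% and 3.77% of all promoters. Matches are a description of the letters. Over the macrophage-like nuclei, the genes that share TGANTCA did not share an order of libraries: Itgax was highest in BeAT surgery, where Trem2 was lowest.

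In BAT, 6 of the 8 genes with enough UMIs were called higher after surgery (Trem2, Cd9, Itgax, Gpnmb, Mmp12 and Atp6v0d2) and 0 lower, where 14.6% of the 10000 genes tested were called (4.95% higher and 9.66% lower). The median log2 ratio was 1.86 over the 7 with UMIs in both libraries and 1.885 with Mmp12 at its bound, against 0.03 over all genes tested. In BeAT, 7 of 8 were called lower after surgery (Trem2, Cd9, Gpnmb, Lgals3, Mmp12, Ctsd and Atp6v0d2) and Itgax higher, where 23.1% of 7468 genes were called (8.57% higher and 14.5% lower). The median was -2.27 against 0.06. Over all genes the BeAT calls were 640 higher and 1082 lower, and 615 and 677 after a trend of the ratio with the genomic span of genes was taken off, which left the calls of the 8 members at 8. With every nucleus thinned to 1000 UMIs, which leaves fewer UMIs per gene, 5 members could be tested in each tissue. Of these, 3 were called in BAT and 5 in BeAT, all in the same directions, where 10.8% and 19.9% of all genes were called. These counts and medians are descriptions, and no set test was made.

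Markers of macrophages and of muscle also differed between these libraries. In BeAT the macrophage markers Lyz2, C1qa and Cd68 went from 1595, 928 and 179.3 CPM (sham) to 466.8, 171.9 and 33.3 CPM (surgery). Of the 8 markers, 3 were called lower and 0 higher (37.5%, against 23.1% of all genes). F13a1 went from 2748 to 2873 CPM and Cd163 from 235.4 to 358.4 CPM, while Adgre1, Mrc1 and Csf1r were lower without a call. The 8 summed to 9632 CPM in BeAT sham and 6424 CPM in BeAT surgery. In BAT, where most members were higher, C1qa went from 852.5 to 411.8 CPM and Cd68 from 154 to 57.1 CPM. There 2 of the 8 markers were called lower and 0 higher, and Adgre1 went from 891.4 to 1271 CPM and F13a1 from 5177 to 5514 CPM. The skeletal muscle markers summed to 11.5 CPM in BeAT sham, with 3 of 8 detected, and to 710.6 CPM in BeAT surgery, with all 8 detected. Only 1 of the 8 had enough UMIs over both libraries to be tested, with a log2 ratio of 10.27. The part of these markers in the member ratios was not tested. Without the 8 sub-clusters that had more markers of another class, a choice made after the values were seen, the BeAT ratios were 0.0343 for Cd9, 0.0236 for Gpnmb, 0.0550 for Mmp12, 0.169 for Lgals3, 0.0915 for Trem2 and 0 for Atp6v0d2, and the BAT ratio of Cd9 was 5.86 and that of Gpnmb 9.13. With macrophage nuclei set by the markers of each nucleus, the BeAT ratios were 0.0364 for Cd9, 0 for Gpnmb, 0.0636 for Mmp12 and 0.229 for Atp6v0d2, and the BAT ratios were 6.92 for Cd9 and 11.9 for Gpnmb. All of these kept their direction.

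Between the 2 sham libraries, BAT sham was lower than BeAT sham for 8 of 8 genes, where 4.81% of 9582 genes were called (2.08% higher and 2.73% lower). The gaps ran from 2.04-fold for Ctsd, 2.80-fold for Trem2, 2.84-fold for Lgals3, 4.04-fold for Cd9 and 6.92-fold for Itgax to 28.9-fold for Atp6v0d2, 54.5-fold for Gpnmb and at least 271.8-fold for Mmp12 by its allowance for 0 UMIs (219.9 by the exact interval). The call of Ctsd was lost, with ratios of 0.501 to 0.627, under 5 of the alternatives. Between the 2 surgery libraries, where 11.9% of 8125 genes were called (6.12% higher and 5.76% lower), BAT was higher for 3 genes: Trem2 by 22.4-fold (7.58 to 109.6), Ctsd by 2.86-fold and Cd9 by 2.07-fold. BAT surgery was 3.74-fold lower for Itgax. Gpnmb, Lgals3, Atp6v0d2 and Mmp12 stayed within 2-fold, at ratios of 1.29, 1.02, 1.70 and 1.15. The 4 comparisons share libraries, so their orders are not independent of each other.

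Nuclei that held several of the genes together were counted next. After each nucleus was thinned to 1000 UMIs, at least 3 of the 9 genes had a UMI in 4 of 1111 macrophage-like nuclei of BAT after the sham operation (0.360%, exact interval 0.0982 to 0.919) and 23 of 852 after surgery (2.70%, 1.72 to 4.02). In BeAT they numbered 58 of 586 (9.90%, 7.60 to 12.6) after the sham operation and 2 of 230 (0.870%, 0.106 to 3.11) after surgery. The intervals of both sham libraries and of BAT surgery did not overlap, while that of BeAT surgery overlapped both BAT libraries. Thinning left out 99, 113, 63 and 43 shallower nuclei. At full depth the shares were 4.79%, 9.95%, 18.5% and 6.59%, and the fullest nucleus of each library held 7, 8, 9 and 5 of the genes.

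**Figure D3:**
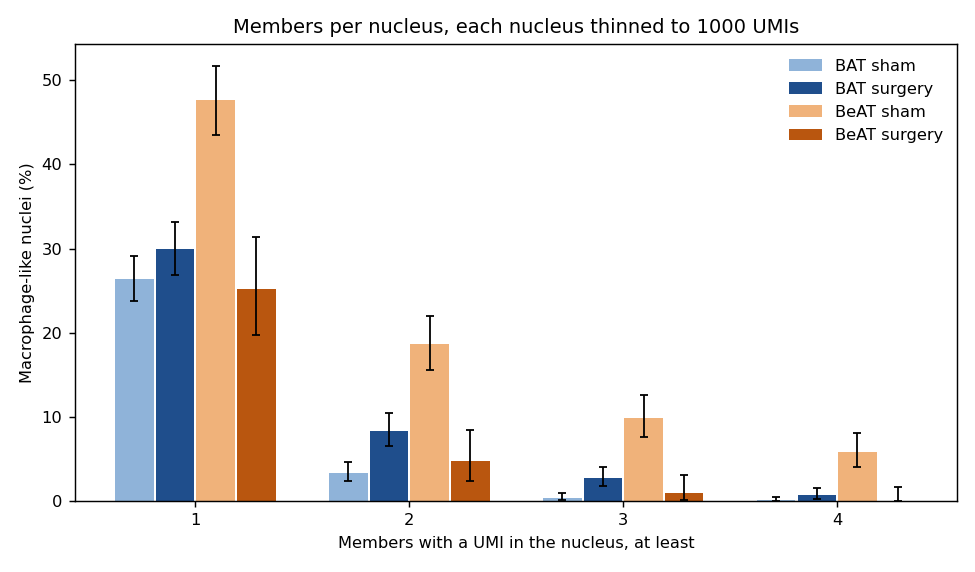
Percent of macrophage-like nuclei (vertical axis) with a UMI of at least 1, 2, 3 or 4 of the 9 genes (horizontal axis) after thinning to 1000 UMIs per nucleus, by library, with exact 95% binomial intervals as error bars. BeAT sham is highest at every number, and at 3 genes or more it stands at 9.90% against 0.360%, 2.70% and 0.870%.

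These nuclei sat mainly in the Saa3-led cluster: 54 of its 207 thinned nuclei in BeAT sham (26.1%) and 23 of 353 in BAT surgery (6.52%), against 2 of 141 (BAT sham) and 2 of 157 (BeAT surgery). The F13a1-led cluster had 2 of 970, 0 of 499, 4 of 379 and 0 of 73. With macrophage nuclei set instead by a rule on the markers of each nucleus, the shares of BeAT sham and BeAT surgery were 6.55% and 0 of 113 nuclei. Outside macrophage-like nuclei the share at the same depth was 0.309% of adipose progenitor-like nuclei in BAT sham, 1.22% in BeAT sham, and 0 of 499 and 0 of 162 in the surgery libraries, which allows up to 0.601% and 1.85%. It was 0 in the 52 to 304 dendritic-like nuclei of each library, which allows up to 3.85%, 5.77%, 4.225% and 0.987%. Schwann-like nuclei had 3 of 67 in BAT sham and epithelial-like nuclei 7 of 5440 in BAT surgery. At full depth the share was not particular to macrophage-like nuclei. In BAT sham it was 10.5% of progenitor-like, 12.2% of Schwann-like and 9.64% of dendritic-like nuclei, against 4.79%. In BAT surgery it was 10.7% of dendritic-like and 7.43% of epithelial-like nuclei, against 9.95%. Progenitor-like nuclei had 11.7% in BeAT sham, against 18.5%, and 0.585% in BeAT surgery, against 6.59%.

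Within the Saa3-led cluster Gpnmb, Lgals3, Atp6v0d2, Mmp12 and Itgax kept the order of libraries seen in all macrophage-like nuclei. Mmp12 stood there at 0 and 90.9 CPM in BAT (sham, then surgery), and at 502.5 and 47.9 CPM in BeAT. Trem2 stood at 16.0, 126.7, 109 and 1.497 CPM in that cluster, and at 29.3, 29.6, 57.0 and 6.86 in the F13a1-led cluster. The ratio of BAT surgery to BAT sham was thus 7.92 (4.07 to 17.6) for Trem2 in the Saa3-led cluster and 1.01 (0.713 to 1.41) in the F13a1-led cluster. Cd9 likewise had a BAT ratio of 2.20 (1.51 to 3.30) in the first and 1.08 (0.594 to 1.91) in the second. Atp6v0d2 was above its sham in both, by 4.94-fold (3.05 to 8.50) and 3.18-fold (1.92 to 5.36).

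Co-detection was set against the number of nuclei with both genes that their shares would give within 10 bins of depth. Of the 36 pairs, 35 were found together more often than that number over the 4 libraries, and 8 of them in each library. Gpnmb and Atp6v0d2 had the highest ratio of observed to given nuclei among the 24 pairs with at least 10 given: both were in 95 nuclei, where depth and shares gave 24.4. By library the pair was in 4, 23, 65 and 3 nuclei, against 0.612, 2.91, 20.3 and 0.482. The most frequent pair, Lgals3 and Ctsd, was in 381 nuclei, close to the 364.2 given. Trem2 and Ctsd shared 207 nuclei (142.2 given), Trem2 and Lgals3 169 (143.5), Lgals3 and Atp6v0d2 139 (91.9), Ctsd and Cd9 114 (90.9), and Gpnmb and Lgals3 112 (73.4). Itgax and Ctsd was the 1 pair below its number, at 29 against 34.0, although Itgax met Mmp12 in 23 nuclei where 3.74 were given.

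**Figure D4:**
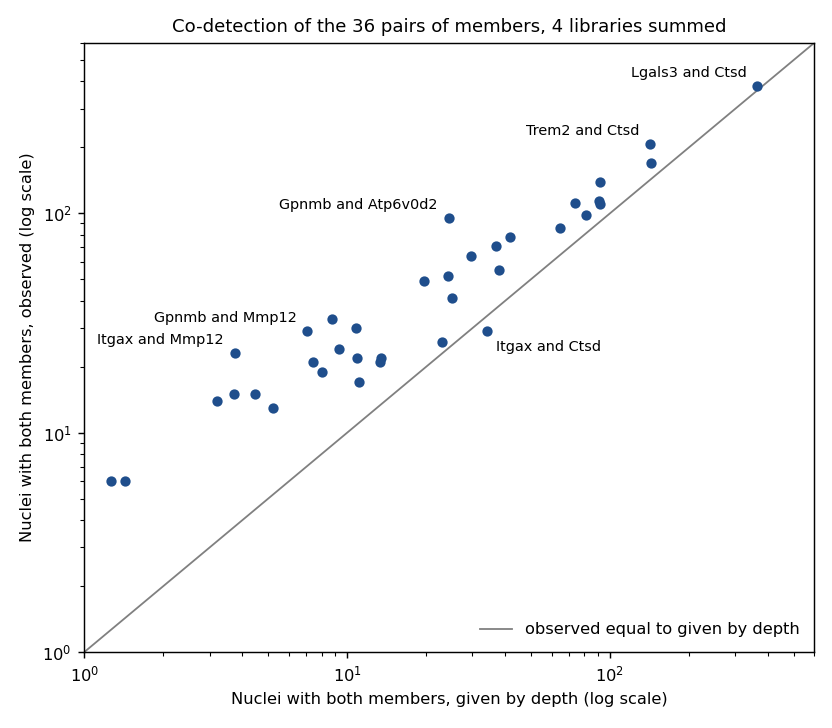
Nuclei with both genes of a pair, observed (vertical, log scale) against the number given by depth and by each gene's share (horizontal, log scale), for the 36 pairs summed over 4 libraries; the line marks equal numbers. All points but Itgax and Ctsd (29 against 34.0) lie above the line, and Gpnmb and Atp6v0d2 lie far above it (95 against 24.4).

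Clustering the macrophage-like nuclei again, with the 9 genes left out, gave 20 sub-clusters, which are numbered and not named. Many came mostly from 1 library and may be that library, not a type. Sub-cluster 4 held 211 nuclei, 175 of them from BeAT sham, 22 from BAT sham, 8 from BAT surgery and 6 from BeAT surgery. At full depth 48.3% of its nuclei had at least 3 of the genes, and Gpnmb stood at 1054, Lgals3 at 1099, Atp6v0d2 at 869 and Mmp12 at 613 CPM. It held 643 of the 764 Gpnmb UMIs, 526 of the 589 Atp6v0d2 UMIs and 352 of the 369 Mmp12 UMIs of BeAT sham, but 88 of the 147 Trem2 UMIs and 240 of the 510 Ctsd UMIs. Gpnmb, Atp6v0d2 and Mmp12 of that library were thus nearly all in 1 sub-cluster, and Trem2 and Ctsd were spread more widely.

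In BAT surgery most Atp6v0d2 UMIs and most Trem2 UMIs came from different sub-clusters. Sub-cluster 15, with 66 nuclei, all of BAT surgery, had Atp6v0d2 at 703, Lgals3 at 617 and Gpnmb at 256 CPM, with Trem2 at 81.6 and Ctsd at 89.3. It held 181 of the 250 Atp6v0d2 UMIs of that library. Sub-cluster 10 (110 nuclei, all of BAT surgery) and sub-cluster 9 (112 nuclei, 110 of them of BAT surgery) had another mix. Trem2 stood at 145.5 and 205 there, Ctsd at 476 and 681 and Cd9 at 167.5 and 139, with Gpnmb at 19.8 and 9.46 and Atp6v0d2 at 4.41 and 3.15 CPM. They held 66 and 65 of the 220 Trem2 UMIs of BAT surgery and 216 and 215 of its 672 Ctsd UMIs. Atp6v0d2 was thus scarce in sub-clusters 9 and 10, but Trem2 was not scarce in sub-cluster 15. It was in 16 of those 66 nuclei, and its 81.6 CPM there stood above the 70.1 CPM of the library. Over BAT surgery, 20 macrophage-like nuclei had both Trem2 and Atp6v0d2, where depth and shares gave 11.2.

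In BeAT surgery, sub-cluster 13 (92 nuclei, 58 from that library) held 26 of its 48 Itgax UMIs and 24 of its 32 Mmp12 UMIs, and had 0 UMIs of Trem2, Gpnmb and Atp6v0d2 in all 4 libraries. Flt3 and Dpp4, known from dendritic cells, were among its leading genes. Sub-cluster 14 (79 nuclei, all of BeAT surgery) held all 45 Atp6v0d2 UMIs and 29 of the 33 Gpnmb UMIs, with 0 of Trem2, and had the muscle gene Ttn among its leading genes. Both belong to 8 sub-clusters (512 nuclei, 154 of them of BeAT surgery) with more markers of another class than of macrophages among their top 10 genes. Without those 8, the BeAT surgery library had 0 of 102 thinned nuclei with at least 3 of the genes, and its Itgax ratio to BeAT sham was 1.44, no longer a call. Between the surgery libraries that choice, made after the values were seen, gave 7 calls of 8 in place of 4, beside 9.97% of all genes. Gpnmb (4.83-fold) and Mmp12 (3.35-fold) were then called higher in BAT.

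**Figure D5:**
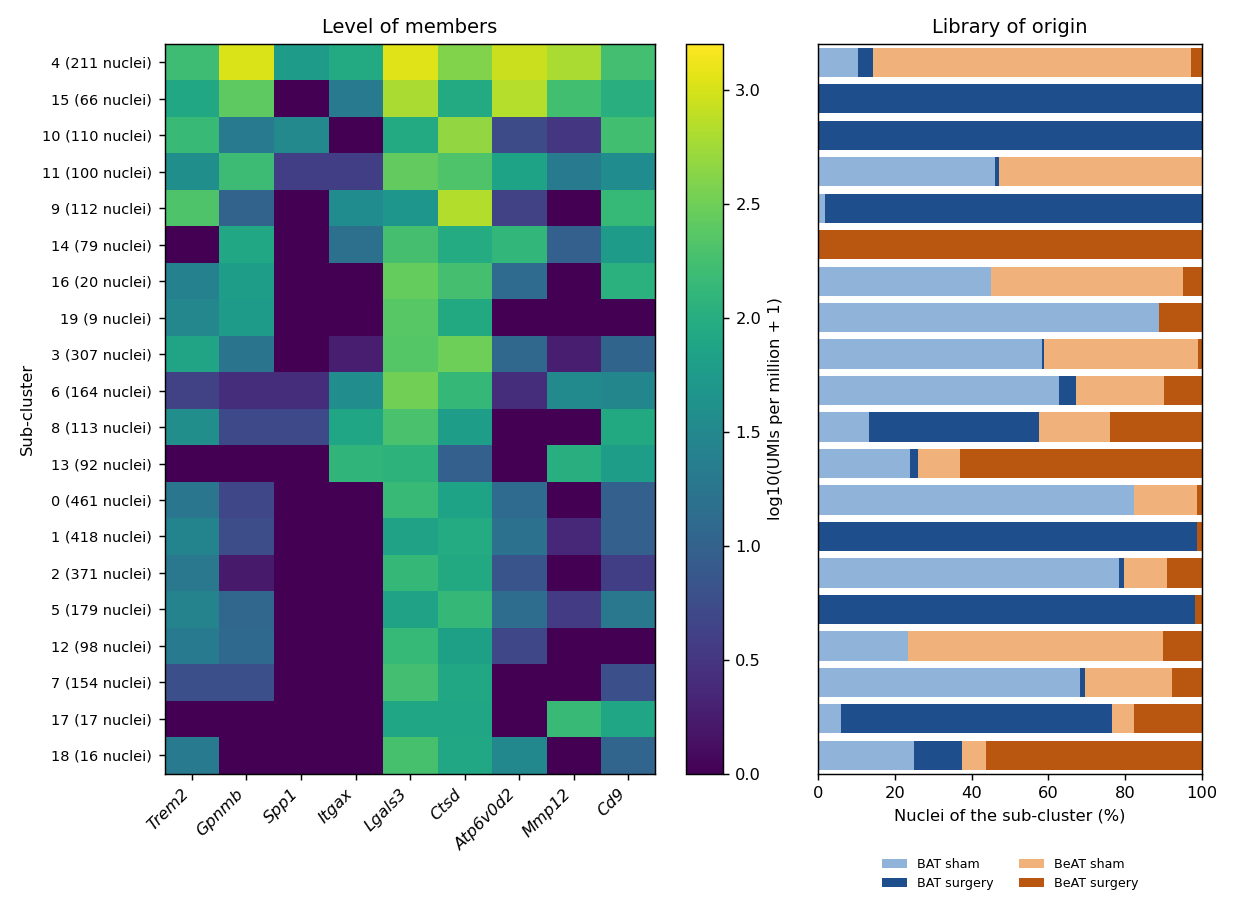
Left, level of the 9 genes in 20 sub-clusters of macrophage-like nuclei over 4 libraries, as log10 of CPM plus 1 (colour), ordered by the share of nuclei with at least 3 of the genes; right, percent of each sub-cluster's nuclei by library. Sub-cluster 4, mostly of BeAT sham, is bright for Gpnmb (1054 CPM), while sub-clusters 9 and 10, of BAT surgery, are bright for Ctsd (681 and 476) and dark for Atp6v0d2.

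The genes most like the 9 were sought in each library as those higher in macrophage-like nuclei with a UMI of at least 2 of them than in nuclei with 0, over 9966 genes. Ranked by their lowest ratio over the 4 libraries, the first 15 were Rai14, Lyz1, Lhfpl2, Adam8, Apbb2, Kcnn4, Bhlhe40, Airn, Il1rl2, Gulp1, Igf2r, Tmem141, Sh3bgrl3, Wdr83os and Sgcd. The lowest ratio was 5.77 for Rai14, 4.90 for Lyz1, 4.58 for Lhfpl2, 4.37 for Adam8 and 2.52 for Sgcd. Lpl, the lipoprotein lipase often listed with this state, was at rank 37 with 2.11, the first of a list of 16 lipid handling genes. The others of that list ran from rank 70 (Nr1h3, 1.84) and 93 (Fabp5, 1.78) to rank 9440 (Olr1, 0). Among them were Plin2 at 1699 (0.946), Fabp4 at 3698 (0.780), Scarb1 at 7423 (0.523), Cd36 at 7922 (0.457) and Msr1 at 9430 (0.0806). A low rank can rest on a single library. Olr1 had a ratio of 17.1 in BAT surgery and 0 in the other libraries. Plin2, Scarb1, Cd36 and Msr1 had their lowest ratio in BeAT surgery. Elsewhere the ratios of these genes ran from 0.740 (Scarb1 in BAT sham) to 3.325 (Plin2 in BeAT sham). Airn overlaps Igf2r on the other strand, and strand use in the counting is not given in the sources used here, so that pair is uncertain. The nuclei with at least 2 of the genes were also deeper, with a median of 4655 against 2481 UMIs (sham) and 3920 against 2254 (surgery) in BAT, and 3599 against 1949.5 and 5251 against 2177 in BeAT. Many of the nuclei with at least 2 of the genes held both Lgals3 and Ctsd. In BAT these were 146 of 221 (sham) and 79 of 235 (surgery), and in BeAT 134 of 224 and 22 of 45. The parts of depth and of that pair in the ranking were not tested. Several places rest on few UMIs in BeAT surgery: Gulp1, Tmem141 and Wdr83os had 2 UMIs there in nuclei with at least 2 of the genes and 1 in nuclei with 0, and Apbb2 had 3 and 1.

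Lists of related genes were read in the same nuclei. Of the TREM2 signalling genes, Vav1, an exchange factor, was called higher in BAT (2.20-fold) and Tyrobp, the adaptor of TREM2, lower with a ratio of 0.347, of 9 tested (22.2% called, against 14.6% of all genes). In BeAT, Plcg2, the phospholipase downstream of TREM2, was called higher (2.20-fold), and Tyrobp (0.227) and Ms4a7 (0.329) lower, of 8 tested (37.5%, against 23.1% of all genes). Tyrobp was thus lower after surgery in both tissues, while Trem2 was higher in BAT and lower in BeAT. Of the 4 MiT/TFE factors, which switch on lysosomal genes, 0 were called in BAT, and Tfec was called higher in BeAT (2.04-fold), so 1 of 4 was called beside 23.1% of all genes.

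Of 20 lysosomal hydrolases and membrane proteins tested in BAT, 1 was called higher and 1 lower, a share below the 14.6% of all genes. The lower one was Acp5, the tartrate-resistant acid phosphatase, with a ratio of 0.433. In BeAT, 1 of 21 was called higher and 9 lower (47.6%, against 23.1% of all genes), Ctsl (0.0488), Ctsk (0.135), Cd63 (0.182) and Grn (0.221) among those lower. The medians were -0.49 and -0.95 on the log2 scale, beside 0.03 and 0.06 over all genes. Other subunits of the proton pump had 0 calls higher and 2 lower of 14 in BAT, and 0 higher and 4 lower of 14 in BeAT. These are 14.3% and 28.6% of the list, close to the 14.6% and 23.1% of all genes.

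Among lipid handling genes, 1 of 16 was called higher in BAT and 5 lower (37.5%, against 14.6% of all genes). Olr1, a scavenger receptor for oxidised lipoprotein, had 1 UMI in BAT sham and 193 UMIs in BAT surgery, and Lpl, Cd36, Fabp4, Fabp5 and Pparg were lower. Adipocytes express those 5 at high levels, and the 5 adipocyte genes used to follow stray RNA came to 539.5 CPM (sham) and 80.3 CPM (surgery) in macrophage-like nuclei of BAT, and 826 and 92.7 CPM in those of BeAT. In BeAT, 8 of 15 lipid handling genes were called lower, and Nr1h3, the sterol sensor LXR alpha (3.98-fold), and Scarb1 (2.51-fold) higher (66.7%, against 23.1%). The part of adipocyte RNA in these calls was not tested.

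Of the integrins and osteopontin receptors, Itgav (3.204-fold), Itgb5 (4.22-fold) and Itgam (2.69-fold) were called higher in BAT, of 8, and Itga9 (2.81-fold) in BeAT, of 8. These are 37.5% and 12.5% of those tested, against 14.6% and 23.1% of all genes. Of the tetraspanins, Cd81 was called lower in both tissues, with ratios of 0.427 and 0.260, and Cd151 in BeAT (0.146). These are 14.3% and 28.6% of the 7 tested, close to the 14.6% and 23.1% of all genes. In BAT the tetraspanin Cd9 was called higher and Cd81 lower. Resident macrophage genes had 0 calls higher and 5 lower of 10 in BAT, with a median of -1.13, and 7 lower in BeAT, with a median of -1.42. There Timd4, a receptor for dying cells, was 19.1-fold higher. Monocyte genes were mixed in BAT, with Fn1 (4.66-fold) and Cx3cr1 (7.67-fold) higher and Ccr2 and Lyz1 lower, and had 3 calls higher of 5 in BeAT.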

How the data were processed

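Nuclei of 4 libraries (1 per group) were sequenced after the SeekGene protocol, per the labels' protocols, which describe digested cells although the molecule is given as nuclear RNA. The deposited values are counts of UMIs per gene and barcode. Build mm10 and Seurat 4.4.0 and 4 are named per the submitters' processing notes, and the aligner is not given in the sources used here.

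Barcodes were kept from 500 UMIs and 300 genes upward, with at most 10% mitochondrial UMIs. Scrublet scores removed doublets: 625 and 783 in BAT (sham, then surgery) and 623 and 621 in BeAT (the top 6% by score in both sham libraries, where its own threshold failed). Log values of counts scaled to 10000 for each nucleus, over 2000 variable genes without the members, with 30 components and 15 neighbours gave 37 Leiden clusters (scanpy 1.11.5, leidenalg 0.10.2). Clusters were named from fixed markers, and 6 stayed unnamed. UMIs were summed per library and class, and ratios have exact conditional binomial intervals. The method was tested on simulated data.

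All 9 members were named in every library. Other list genes were named if called in a pair of libraries, and like genes were the 15 with the highest lowest ratio. Members and lists were chosen with earlier results of these data known. Lists were lipid handling, lysosomal, V-ATPase, MiT/TFE, TREM2 signalling, integrin, tetraspanin, resident macrophage, monocyte and cell cycle genes. The cell cycle genes had 0 calls of 2 tested in BAT and 0 of 1 in BeAT, and the values of 1 list gene are not reported here. Gene spans are from GENCODE M21 (32235 of 32285 identifiers matched), promoters from RefSeq (8 of 9 members matched). Alternatives were size factors, no UMI minimum, thinning, a marker rule per nucleus, doublets kept, members in the clustering and a span trend.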

Additional observations from a re-analysis of the deposited data

Results flagged for a closer look

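For 6 of the genes the ratio of surgery to sham pointed in opposite directions in the tissues labelled BAT and BeAT. The difference between the tissues was not tested, since each ratio compares 1 library with 1 library. For Trem2 the ratio was 2.55 in BAT and 0.0406 in BeAT. Gpnmb had ratios of 6.02 and 0.0858, and Atp6v0d2 of 7.46 and 0.152. Mmp12 was at least 53.7-fold higher in BAT by the allowance for 0 UMIs in the sham library (43.03 by the exact interval). Its ratio in BeAT was 0.172. Cd9 had ratios of 3.63 and 0.435, and Ctsd of 1.63 and 0.281, of which the BAT value of Ctsd was short of a call.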

How the results depend on the processing

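No called ratio of a member changed direction under any alternative that was run. Of ratios that were not called, Ctsd in BAT fell below 1 within the F13a1-led cluster (0.761), and Lgals3 between the surgery libraries when thinned (0.920). The settings below changed the counts of calls or the shares; the cause was not tested beyond what each setting leaves out. Thinning to 1000 UMIs per nucleus, which leaves fewer UMIs per gene, left 3 calls of 5 members tested in BAT and 5 of 5 in BeAT. Over all genes 10.8% and 19.9% were then called. Without thinning the calls were 6 and 8, of 8 members tested in each tissue. Within the F13a1-led cluster the calls were 2 in BAT (1 higher, 1 lower) and 4 in BeAT. Between the shams they were 2 and between the surgery libraries 1, against 6, 8, 8 and 4 over all macrophage-like nuclei. Fewer members reached 50 UMIs there. In BeAT they were Trem2, Lgals3, Ctsd and Atp6v0d2, all called lower. In BAT they were these and Cd9, and between the shams these and Gpnmb. Between the surgery libraries they were Trem2, Lgals3 and Ctsd. Over all genes in that cluster 14.6% were called in BAT, 3.65% between the shams and 7.86% between the surgery libraries. In BeAT 4.54% were called higher and 14.4% lower. Without the 8 sub-clusters with markers of another class, 7 of 8 members were called between the surgery libraries (6 higher in BAT, 1 lower), beside 9.97% of all genes. The share of BeAT surgery was then 0. These last 2 settings, and leaving out the top nucleus of each member, were chosen after seeing the data. Leaving out the top nucleus gave 5, 8, 7 and 5 calls, of 7, 8, 8 and 8 members tested. Over all genes 14.6%, 23.0%, 4.80% and 11.9% were called in that setting. The share of nuclei with at least 3 members was 4.79% and 9.95% in BAT (sham, then surgery) and 18.5% and 6.59% in BeAT at full depth. Thinned to 2000 UMIs it was 1.42% and 6.03% in BAT, and 19.1% and 2.67% in BeAT. At least 2 members gave 3.33%, 8.33%, 18.6% and 4.78%, and at least 4 gave 0.0900%, 0.704%, 5.80% and 0. By the marker rule per nucleus the share was 6.55% in BeAT sham and 0 in BeAT surgery, and in BAT that rule gave 714 genes higher and 476 lower against 495 and 966. Single calls that were lost included Itgax in BeAT with size factors (ratio 1.95) and with doublets kept (1.48), and Cd9 in BeAT with members in the clustering (0.733). The Ctsd gap between the shams was within 2-fold with size factors (ratio 0.501), with members in the clustering (0.511), without the top nucleus (0.519), with the span trend taken off (0.551) and within the F13a1-led cluster (0.627). Without the top nucleus Atp6v0d2 was called between the surgery libraries (3.34). The 273 nuclei of BeAT surgery set the limit of depth: 3 UMIs there are 3.13 CPM. No paired analysis was possible because each group has 1 library.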

Other observations

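Other sub-clusters of macrophage-like nuclei carried other mixes of the genes. Sub-cluster 3 (307 nuclei, 179 of BAT sham and 123 of BeAT sham), with Pf4, Fcna and Ccl8 among its leading genes, had Ctsd at 315 and Trem2 at 72.4 CPM with Gpnmb at 15.9 and Atp6v0d2 at 10.6, and 10.1% of its nuclei had at least 3 of the genes. Sub-cluster 8 (113 nuclei, from all 4 libraries), with Treml4, Ace and Cd300e among its leading genes, had Itgax at 74.5 and Cd9 at 86.9 CPM and 0 UMIs of Atp6v0d2 and Mmp12. Sub-cluster 6 (164 nuclei, 103 of BAT sham), with Lyz1 and Ear2 among its leading genes, had Lgals3 at 328 and Itgax at 36.5 CPM, with Trem2 at 3.32 and Gpnmb at 1.66. Itgax was thus found both in sub-cluster 4, with Gpnmb at 1054 CPM, and in sub-clusters where Gpnmb was nearly absent.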
